A study of Mus musculus with 2 samples.

Results

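Keratin, Lce and Sprr genes of cultured mouse embryonic fibroblasts, cells of connective tissue type, were taken by symbol from a table of 23365 genes. Every symbol made of Krt, Lce or Sprr and a digit was kept, and the keratin-associated Krtap genes were left out, which gave 87 genes: 52 keratin, 20 Lce and 15 Sprr genes. The study sequenced RNA from cells of 2 genotypes, wild type and a knock-out of the 5-methylcytosine oxidases TET1 and TET2, with 1 library per genotype. Its title asks how both enzymes bear on DNA methylation and the control of developmental genes. The table names its conditions A and B and does not say which is the knock-out, so every value below belongs to condition A or condition B and none to a genotype.

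Keratins are the intermediate filament proteins of epithelia. Each filament is built from pairs of a type I and a type II keratin, and which pair a cell makes depends on the epithelium: Krt8 and Krt18 with Krt7 and Krt19 in simple epithelium, Krt5 and Krt14 in the basal layer of the epidermis, Krt1 and Krt10 above it, and further sets in the hair follicle. Lce (late cornified envelope) and Sprr (small proline-rich) proteins are crosslinked under the membrane of dying keratinocytes to form the cornified envelope, and their genes lie side by side in the epidermal differentiation complex. Fibroblasts are mesenchymal and are not known for any of these programs.

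Counts of reads were recovered from the table's mean over both conditions and its ratio, and condition A had 60135134 reads and condition B 56168260. A count of 0 in a library allows up to 3 reads. The intervals given with folds are 95% exact (Clopper-Pearson) intervals. They cover counting error at most, and not variation between cultures or library preparations. Sequenced fragments were not marked as separate molecules, so repeated copies of a fragment are not allowed for either. With 1 library per condition, no difference below could be checked in a repeat. Adjusted p-values printed by the authors set these 2 libraries against each other, not the genotypes, and a value under 0.1 is called the authors' threshold. The targeted gene Tet1 had 515 reads in condition A and 131 in condition B, and Tet2 had 927 and 501. These totals do not separate the altered part of either gene from the rest, and no genotype was assigned from them.

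The cells carried the marks of fibroblasts in both conditions, while the epithelial genes Epcam, Cdh1 and Trp63 had few reads. The collagen I gene Col1a1 had 337574 reads in condition A and 288196 in condition B, and Vim, the intermediate filament gene of mesenchyme, had 116158 and 125822. Fibroblast markers were not all level: Dcn had 192 and 8722 reads. Of the 18 markers listed below, 8 were at least 2-fold higher in condition B and 0 at least 2-fold lower, with the shares over all genes given there. Epcam and Cdh1, which define epithelium, had 7 and 35 reads in condition A and 2 and 9 in condition B. Trp63, the master regulator of the basal epidermis, had 48 reads in condition A and 7 in condition B. Other markers of simple epithelium ranged from 0 reads in both conditions (Ap1m2) to 2611 in condition A and 4321 in condition B (Cdh3).

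Most of the epidermal genes had few reads or none. In both conditions 47 of the 87 had 0 reads, and 26 had a mean normalized count (reads divided by the library's size factor, averaged over both conditions) above 0 but under 10. Of those 26, 18 had at most 3 reads in all. None of the 26 had over 18 reads in all. Another 4 genes had a mean between 10 and 50, and 10 genes reached 50, the minimum used for the counts below. As a share, 46.0% of these genes had a read in either library, against 74.2% of all genes in the table, and 11.5% reached the minimum, against 53.1%. Widely used genes such as Gapdh and Actb were not at 0, and a gene at 0 can still be lost to the authors' counting, whose method the labels leave unstated.

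**Figure D1:**
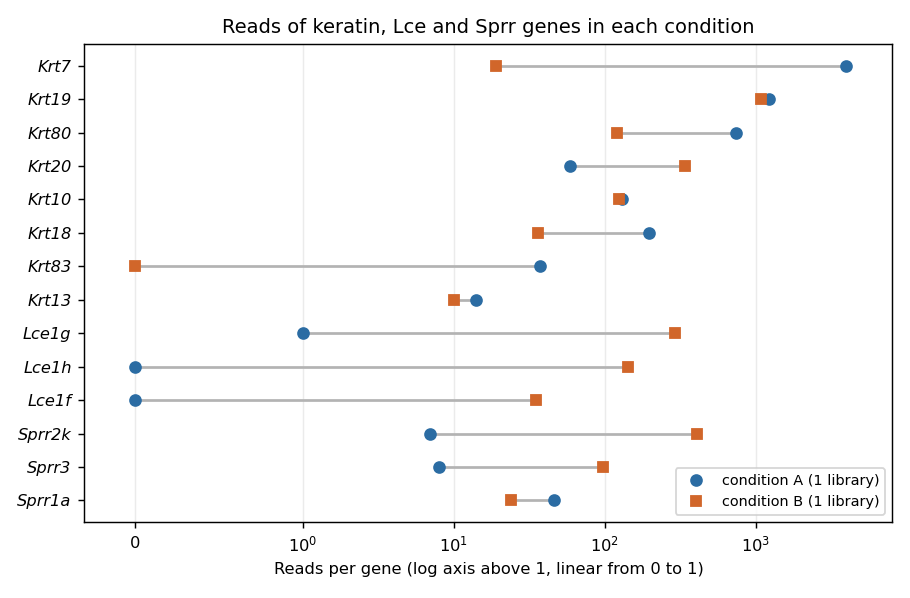
Reads per gene (x axis, logarithmic above 1 and linear from 0 to 1) of the 14 keratin, Lce and Sprr genes whose mean normalized count is 10 or more, with circles for condition A and squares for condition B, 1 library each. Krt7 has 3931 reads in condition A and 19 in condition B, Lce1g and Lce1h have 293 and 143 reads in condition B against 1 and 0, and Krt19 and Krt10 have nearly equal reads.

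Of the 10 genes at the minimum, 5 were at least 2-fold higher in condition B (Sprr2k, Krt20, Lce1g, Lce1h and Sprr3) and 3 at least 2-fold lower there (Krt7, Krt80 and Krt18), while Krt19 and Krt10 were neither. Among all 12401 genes at the minimum, 8.31% were at least 2-fold higher there and 9.6% at least 2-fold lower. Past the authors' threshold were 3 of the 10 toward condition B (Sprr2k, Lce1g and Lce1h) and 1 toward condition A (Krt7), and over the same 12401 genes the shares were 1.98% and 1.22%. A gene that is high in a single condition reaches the minimum through that condition alone, so these counts over 10 genes are not a result about the 87. At a minimum of 200, only Krt7, Krt19, Krt80, Sprr2k and Krt20 were left. Of these, 2 were at least 2-fold higher in condition B and 2 at least 2-fold lower, against 6.27% and 8.32% of all genes there. Past the authors' threshold were 2 of them, against 3.21%. At 4-fold or more (a log2 ratio of 2) the minimum of 50 left 5 higher and 3 lower, against 3.84% and 2.95%. The median log2 ratio of the 10 was 1.39, and that of all genes at the minimum was -0.04. The value of 1.39 falls in the gap between Krt10 (0.095) and Krt20 (2.68), with no gene near it. At a minimum of 200 the median was -0.020, so 1.39 is not a general shift of these genes.

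**Figure D2:**
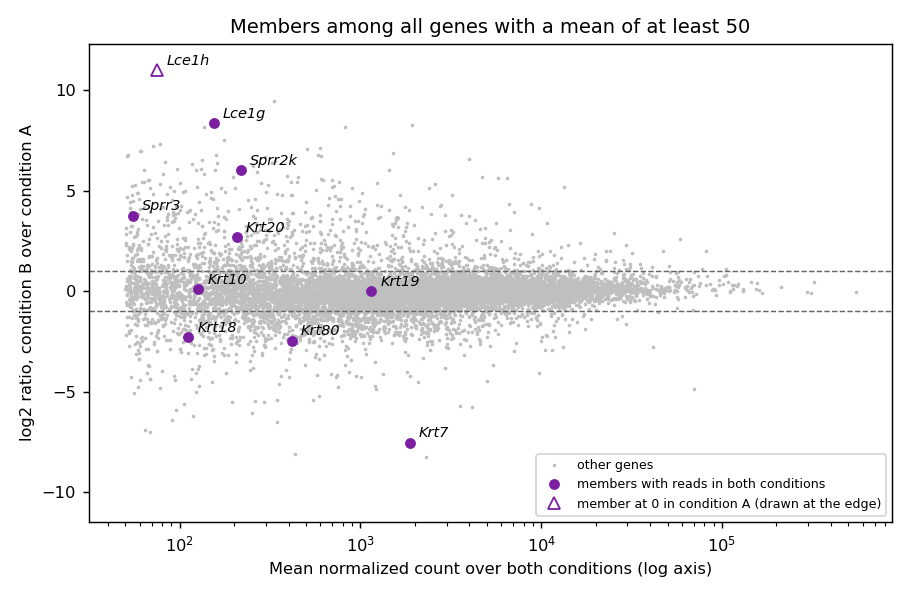
Log2 ratio of condition B over condition A (y axis) against the mean normalized count over both conditions (x axis, logarithmic) for genes at or above a mean of 50, with the 10 keratin, Lce and Sprr genes named and other genes in grey. Dashed lines mark a log2 ratio of 1 in size; Krt7 lies far below them, Lce1g and Sprr2k far above, and Lce1h, at 0 reads in condition A, is drawn at the upper edge.

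The keratin that differed most was Krt7, a type II keratin of simple and ductal epithelium and of mesothelium. It had 3931 reads in condition A and 19 in condition B. The fold was 186 toward condition A, with an interval of 119 to 310, and the adjusted p was 6.35e-13 in the authors' deposited table. The promoter of Krt7 holds many CpG sites, the dinucleotide that DNA methylation and TET enzymes act on. The 250 bases before the RefSeq start of Krt7 (chr15:101412153-101412402, build GRCm38.p6, plus strand) are shown for that reason, 5′ to 3′, with each CpG in capitals.
Krt7: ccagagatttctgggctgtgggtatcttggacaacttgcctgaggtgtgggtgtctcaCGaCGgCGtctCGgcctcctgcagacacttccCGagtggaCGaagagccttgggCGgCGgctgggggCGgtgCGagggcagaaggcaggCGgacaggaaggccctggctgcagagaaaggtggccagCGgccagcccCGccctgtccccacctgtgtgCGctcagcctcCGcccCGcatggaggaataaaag

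This stretch holds 16 CpG sites, and the window of 300 bases that runs 50 bases past the start holds 21. Of 32851 RefSeq promoter windows of that length, 24.8% held as many or more, so the Krt7 count is not rare in the genome. Among the 68 windows of these families, which belong to 67 of the 87 genes, the median was 3 CpG sites, the highest was the 21 of Krt7, and Krt18 had 17. The windows of Krt19 and Krt80 were not analysed here. The GC box GGGCGG, searched on both strands, occurred in the Krt7 window, in 3 of the 68 windows in all, and in 35.7% of all windows. The files hold no methylation values, so none of these sites was measured here.

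Other keratins of simple epithelium went different ways. Krt19, a type I keratin and a usual partner of Krt7, had 1217 reads in condition A and 1080 in condition B. Its fold of B over A was 0.986, with an interval of 0.908 to 1.07, which spans no difference. Krt18, a type I keratin, had 195 reads in condition A and 36 in condition B, a fold of 4.88 toward condition A (interval 3.40 to 7.16) with an adjusted p of 1 in the authors' deposited table. Krt8, its type II partner, had only 7 and 1 reads, and the interval of its fold toward condition A, 0.809 to 284, includes no difference. Krt20, a type I keratin of gut and urothelium, had 59 reads in condition A and 340 in condition B. That made it 6.40-fold higher in condition B (interval 4.84 to 8.59) with an adjusted p of 0.395 in the authors' deposited table. Krt23 had 0 reads in both conditions.

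Among the 22 keratins of stratified epithelium, 2 reached the minimum. Krt80, a type II keratin found in many epithelia, had 743 reads in condition A and 121 in condition B, a fold of 5.53 toward condition A (interval 4.55 to 6.75) with an adjusted p of 0.204 in the authors' deposited table. Krt10, the type I keratin of the upper epidermis, had 129 and 124 reads, with a fold of B over A of 1.07 and an interval of 0.828 to 1.38. Its type II partner Krt1 had 1 read in each condition, so the Krt10 reads were not matched by those of its partner.

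Basal epidermal keratins stayed near 0. Krt5 had 1 read in condition A and 17 in condition B, a fold of 18.9 that rests on a single read, with an interval of 2.96 to 789. Krt14 had 0 and 1 reads, and Krt15, another basal type I keratin, had 4 and 8. Krt13, of the mucosal epithelium, had 14 and 10 reads. Krt16, which marks activated epidermis, had 7 and 1, while Krt17, Krt6a and Krt6b had 0 in both conditions.

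Hair keratins were at or near 0 with 1 exception. Of the 15 hair and nail keratins, 10 had 0 reads in both conditions. Krt83 had 37 reads in condition A and 0 in condition B, at least 11.1-fold higher in condition A against a floor of 3 reads in condition B, with an adjusted p of 1 in the authors' deposited table. The value is uncertain, because 23.2% of the windows of 50 bases in its transcript also occur in transcripts of other genes, most of them in Krt86, which had 0 reads. The 8 keratins of the inner root sheath of the hair follicle had 2 reads in each condition in all.

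Summed by type, the difference lay on the type II side. Levels between genes were compared as RPKM, that is, reads scaled to the library's total and to the length of the longest coding GENCODE transcript. The 27 type I keratins summed to an RPKM of 16.9 in condition A and 17.1 in condition B. The 24 type II keratins summed to 19.6 in condition A and 0.858 in condition B; Krt85, with 7 and 0 reads, had no length and is not in these sums. The ratio of type II to type I mRNA was therefore 1.16 in condition A and 0.0502 in condition B. Both ratios depend on the transcript chosen for each gene, which had 4094 bases for Krt7 and 1576 for Krt19.

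Krt7 alone made up 81.6% of the type II level in condition A and 9.63% in condition B. Without Krt7, type II keratins summed to an RPKM of 3.60 and 0.775, so the remaining type II keratins were lower in condition B as well, through Krt80. On the type I side Krt19 held an RPKM of 12.8 and 12.2. Krt18 went from 2.26 to 0.446 and Krt20 from 0.509 to 3.14, differences in opposite directions within sums that were about level. In a bulk sample, fewer cells that make a keratin and less mRNA per cell cannot be told apart.

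**Figure D3:**
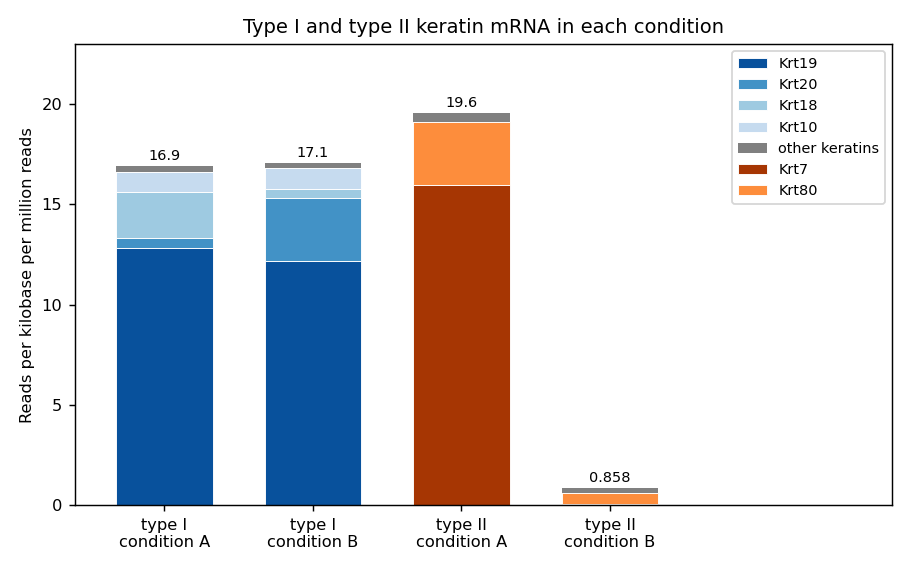
Summed level of type I and type II keratins in each condition (y axis, RPKM, 1 library per bar), stacked by gene. Type I keratins reach 16.9 and 17.1, mostly Krt19, and type II keratins go from 19.6 in condition A, mostly Krt7, to 0.858 in condition B.

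Neighbouring genes of the type II cluster on chromosome 15 were compared by their RefSeq order, as names only, since the authors' build is mm9. Krt80 and Krt7 are the first and second genes at their end of the cluster, and both were higher in condition A. Krt81 and Krt86 follow with 0 reads in both conditions, and then Krt83 with its 37 and 0 reads. At the far end lie Krt8 and Krt18, where the type I gene Krt18 sits beside the type II genes. Of the 24 genes in this order, 11 had 0 reads in both conditions. Reads of Krt7, Krt80 and Krt10 may include those of an annotated antisense gene that overlaps each of them in GENCODE, since the library kit does not mark strand.

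The Lce genes were all but absent from condition A. All 20 together had 3 reads in condition A and 475 in condition B, and nearly all of the latter came from 3 genes of the Lce1 group. Lce1g had 1 read in condition A and 293 in condition B, a fold of 326 toward condition B whose interval, 58.0 to 12902, is wide because of the single read (adjusted p = 0.000668 in the authors' deposited table). Lce1h had 0 and 143 reads, at least 52.96-fold higher in condition B against 3 reads in condition A, with an adjusted p of 0.0368 in the authors' deposited table. Lce1f had 0 and 35 reads, at least 12.96-fold higher against the same floor, with an adjusted p of 1 in the authors' deposited table.

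The other 17 Lce genes each had 2 reads at most over both conditions, and 13 of the 20 had 0 in both conditions. Among them are all genes of the Lce3 group but Lce3f, which had 0 and 2 reads, and Lce6a. Lce1 copies resemble each other, and the split of reads among them is uncertain. Of the windows of 50 bases in the transcript, 18.4% in Lce1g, 19.9% in Lce1h and 15.02% in Lce1f also occur in transcripts of other genes. The rest of each transcript is unique at that length, and the labels leave the read length unstated.

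Lce1f, Lce1g and Lce1h are direct neighbours in the RefSeq gene order of chromosome 3, between Lce1e and Lce1i, which had 0 reads in both conditions. The promoters of Lce1g, Lce1h and their neighbour Lce1i, at 0 reads, are shown because they are alike in sequence and unlike in reads. They lie at chr3:92752339-92752588, chr3:92765066-92765315 and chr3:92778900-92779149 of GRCm38.p6 on the minus strand, from RefSeq, and each gives the 250 bases before the start, 5′ to 3′, with CpG in capitals.
Lce1g: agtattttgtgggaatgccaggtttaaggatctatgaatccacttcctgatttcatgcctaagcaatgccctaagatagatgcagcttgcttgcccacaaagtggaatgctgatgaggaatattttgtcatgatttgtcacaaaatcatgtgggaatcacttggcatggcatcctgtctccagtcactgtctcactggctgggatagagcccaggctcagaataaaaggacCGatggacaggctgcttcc
Lce1h: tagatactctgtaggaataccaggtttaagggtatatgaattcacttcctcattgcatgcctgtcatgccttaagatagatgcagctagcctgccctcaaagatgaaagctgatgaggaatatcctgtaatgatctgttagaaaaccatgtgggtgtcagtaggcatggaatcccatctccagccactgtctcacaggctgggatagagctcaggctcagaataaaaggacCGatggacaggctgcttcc
Lce1i: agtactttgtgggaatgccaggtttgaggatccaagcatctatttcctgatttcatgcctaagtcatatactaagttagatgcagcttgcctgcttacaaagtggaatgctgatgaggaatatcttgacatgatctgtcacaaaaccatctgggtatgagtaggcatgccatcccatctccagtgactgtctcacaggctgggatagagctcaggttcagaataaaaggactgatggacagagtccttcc

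Over windows of 300 bases, aligned end to end, Lce1g was 84.0% identical to Lce1h and 86% identical to Lce1i. Lce1g was thus no less like Lce1i, a gene at 0, than like Lce1h, but the other pairs with a gene at 0 were less alike. Lce1h was 80.1% identical to Lce1i. Lce1e, also at 0 reads, was 79.7% identical to Lce1g and 78.2% identical to Lce1h. The window of Lce1f was not analysed here. Lce1g and Lce1h each held 1 CpG, close to the start in both, and Lce1i held 0. The TATA motif TATAAA, searched on both strands and without variants, occurred in none of the windows of Lce1g, Lce1h and Lce1i. It occurred in 4 of 19 Lce windows, in 10 of 13 Sprr windows, in 19 of 36 keratin windows and in 13.6% of all windows.

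The Sprr genes had 67 reads in condition A and 534 in condition B over 15 genes, of which 8 had 0 in both. Sprr2k had 7 reads in condition A and 409 in condition B, 64.9-fold higher in condition B (interval 31.2 to 162) with an adjusted p of 0.000855 in the authors' deposited table. Sprr3, which is typical of oral and oesophageal epithelium, had 8 and 97 reads, 13.5-fold higher in condition B (interval 6.57 to 32.1) with an adjusted p of 1 in the authors' deposited table. Sprr1a, which is also induced by stress outside the epidermis, went the other way with 46 reads in condition A and 24 in condition B. Its fold toward condition A was 1.73, with an interval of 1.03 to 2.95, and its adjusted p was 1 in the authors' deposited table. Per length and depth, Sprr2k in condition B reached an RPKM of 11.4, near the 12.2 of Krt19, and Lce1g reached 5.64.

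The remaining Sprr2 genes each had 4 reads at most over both conditions, and Sprr1b and Sprr4 had 0 in both conditions. Sprr2k was thus the only Sprr2 gene of the table above 4 reads in these 2 libraries, and none of its windows of 50 bases occurs in another gene's transcript. Its promoter (chr3:92432332-92432581, GRCm38.p6, plus strand, RefSeq) is shown with TATAAA, the AP-1 motif TGANTCA and CpG in capitals, because Sprr2k had the most reads of the Sprr genes. The AP-1 motif, which reads the same on both strands, occurs in it 2 times, as it does in the window of Sprr1a, which had more reads in condition A, and in 1 of the windows of Krt13.
Sprr2k: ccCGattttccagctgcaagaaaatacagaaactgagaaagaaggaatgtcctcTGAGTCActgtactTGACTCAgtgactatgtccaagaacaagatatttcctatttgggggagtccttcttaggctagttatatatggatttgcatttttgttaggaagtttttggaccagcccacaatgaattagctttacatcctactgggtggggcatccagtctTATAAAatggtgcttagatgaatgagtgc

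TGANTCA occurred in 9 of the 13 Sprr windows, 0 of 19 Lce windows, 2 of 36 keratin windows and 7.81% of all windows. Those 9 include Sprr1b, Sprr2e, Sprr2f and Sprr2i, which had 0 reads in both conditions, so genes with the motif were found with and without reads. Sprr3, with 97 reads in condition B, had none in its window. A match of these letters is a description and not a measured binding site.

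**Figure D4:**
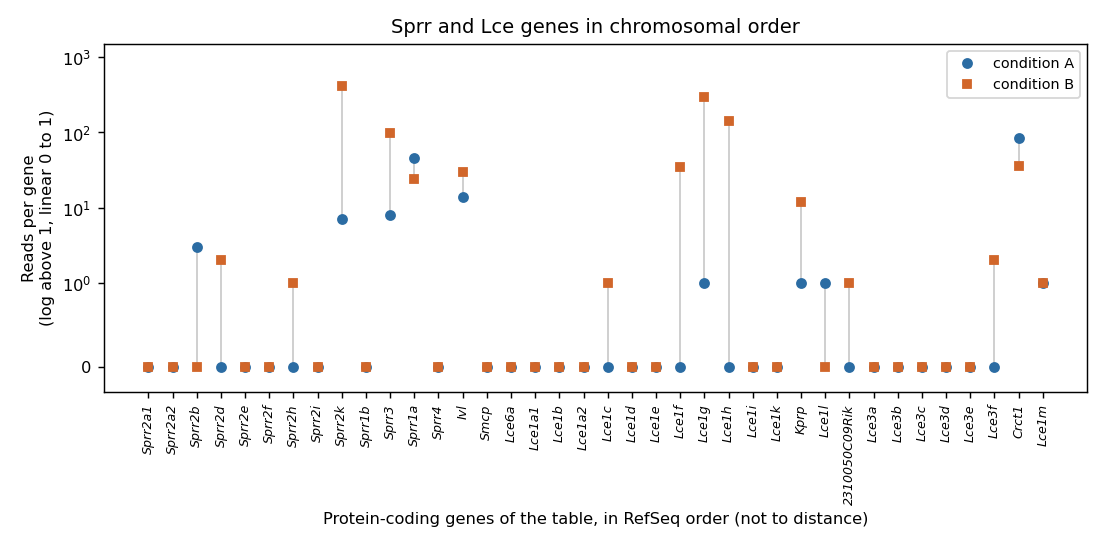
Reads per gene (y axis, logarithmic above 1 and linear from 0 to 1) of the 38 protein-coding genes of the table from Sprr2a1 to Lce1m, in RefSeq order along chromosome 3 and not to distance. Circles are condition A and squares condition B; most reads stand at Sprr2k, Sprr3, Sprr1a and Ivl, at Lce1f, Lce1g and Lce1h, and at Crct1, which has 85 in condition A and 36 in condition B. Kprp has 1 and 12 reads, and 21 of the 38 genes are at 0 in both conditions.

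Other genes of the epidermal differentiation complex had smaller ratios at the minimum than Lce1g and Sprr2k. Of 28 in the table, 11 reached the minimum, 5 of them at least 2-fold higher in condition B and 1 at least 2-fold lower, against 8.31% and 9.6% of all genes at the minimum. Here too, a gene high in a single condition can reach the minimum through that condition alone. Counts over this list, and over lists below that reached the minimum only in part, are therefore not results about the whole lists. Past the authors' threshold were 0 of the 11, and their median log2 ratio was 0.89. Tchh, the hair follicle protein trichohyalin, had 8 and 104 reads (log2 ratio 3.85), S100a7a 16 and 95 (2.72), S100a3 52 and 154 (1.72) and S100a4, also a fibroblast marker, 8895 and 24748 (1.63). Crct1, which lies among the Lce genes, was lower in condition B with 85 and 36 reads. The main cornified envelope proteins loricrin and involucrin stayed under the minimum: Lor had 19 reads in condition A and 59 in condition B, and Ivl 14 and 30.

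Genes that crosslink the envelope, make barrier lipids or process the outer layers were mostly under the minimum, with 4 of 21 above it. Klk8, a secreted serine protease of the epidermis, had 38 and 450 reads, 13.2-fold higher in condition B (interval 9.44 to 18.8) with an adjusted p of 0.0434 in the authors' deposited table. Sbsn (suprabasin) had 140 and 512 reads, a log2 ratio of 2.02, and the fatty acid elongase gene Elovl4 had 774 and 376 reads, a log2 ratio of -0.89. Cst6, a protease inhibitor of the cornified layer, had 179 and 175.

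The desmosome, to which keratin filaments attach, had 7 of 16 genes at the minimum and a median log2 ratio of 0.74. Pkp1, the plakophilin of stratified epithelium, had 1472 reads in condition A and 69 in condition B, 19.2-fold higher in condition A (interval 15.1 to 24.8) with an adjusted p of 0.000180 in the authors' deposited table. Dsp, the plakin that ties keratin to the desmosome, went the other way with 338 and 1155 reads (log2 ratio 1.92), as did Pkp2 (0.96) and Dsc2 (0.93), and none of these 3 passed the authors' threshold. In the list of hemidesmosome and basement membrane genes, 2 of 7 were at least 2-fold higher in condition B, Lamb3 (log2 ratio 3.10) and Itga6 (1.39), against 8.31% of all genes. Plec, which links filaments to the hemidesmosome, lay at -0.32 and Itgb4 at -0.13, and 0 of the 7 passed the authors' threshold.

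Of 24 regulators of epidermal and epithelial fate, 7 reached the minimum, 5 at least 2-fold higher in condition B and 1 at least 2-fold lower, against 8.31% and 9.6% of all genes at the minimum. By the same limit, the counts over these 7 are not a result about the 24. Hoxc13, which drives hair keratin genes in the follicle, had 4 and 301 reads, 83.6-fold higher in condition B (interval 32.3 to 309) with an adjusted p of 0.00344 in the authors' deposited table. The hair keratins themselves summed to 44 reads in condition A and 4 in condition B, and to 7 and 4 without Krt83, whose value is uncertain as given above. Klf4, a barrier regulator that fibroblasts also express, had 6444 and 18465 reads (log2 ratio 1.67), Gata3 had 290 and 775 (1.57) and Tfap2a 32 and 81 (1.49). Klf5 had 415 and 170 reads, a log2 ratio of -1.14.

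Markers of other cell types differed between the conditions as well. Of 18 simple epithelium markers 4 reached the minimum, with Prom1 at a log2 ratio of 2.68, St14 at 1.93, Cdh3 at 0.88 and Spint2 at 0.47, none past the authors' threshold. Under the minimum, Cdh1 went the other way with 35 reads in condition A and 9 in condition B, as did Muc1 with 60 and 31 and Epcam with 7 and 2. The list summed to 3023 and 4943 reads, most of them from Cdh3, and to 412 and 622 without it. The 8 mesothelial markers summed to 345 and 1031 reads, and none of them was at 0 in both conditions. Among them Upk1b had 8 and 635 reads, 88.2-fold higher in condition B (interval 44.5 to 205) with an adjusted p of 1.75e-05 in the authors' deposited table, Bnc1 had 43 and 200 reads, and Msln (mesothelin) was lower in condition B with 219 and 69. The mesothelial list thus held genes on both sides, and its part in the Krt7 and Krt20 values was not tested.

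Fibroblast markers were all at the minimum, 18 of 18, with 8 at least 2-fold higher in condition B, 0 at least 2-fold lower and 6 past the authors' threshold. Over all genes at the minimum, the shares were 8.31% and 9.6% by size, and 1.98% passed the authors' threshold toward condition B and 1.22% toward condition A. Dcn (decorin) had 192 and 8722 reads, Fap 27 and 447, Lum (lumican) 77 and 680, and Thy1 6406 and 42389. Pdgfra had 699 and 3648 and Postn 17586 and 95856, and these 6 were the genes that passed in the authors' deposited table. The list summed to 1736351 reads in condition A and 1773318 in condition B. Most of these came from 3 genes without a 2-fold difference: Fn1 (592113 and 511663), Col1a1 (337574 and 288196) and Col1a2 (319598 and 274361). The sum therefore says little about the other genes of the list. Of 17 genes of endothelium, blood, nerve and muscle, 6 reached the minimum, 3 at least 2-fold higher in condition B, against 8.31% of all genes, and 0 past the authors' threshold. The largest of these ratios was that of Kdr, the endothelial VEGF receptor, with 112 and 693 reads (log2 ratio 2.78). Des, the intermediate filament gene of muscle, lay at a log2 ratio of 1.13 and the neuronal tubulin gene Tubb3 at 0.53.

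**Figure D5:**
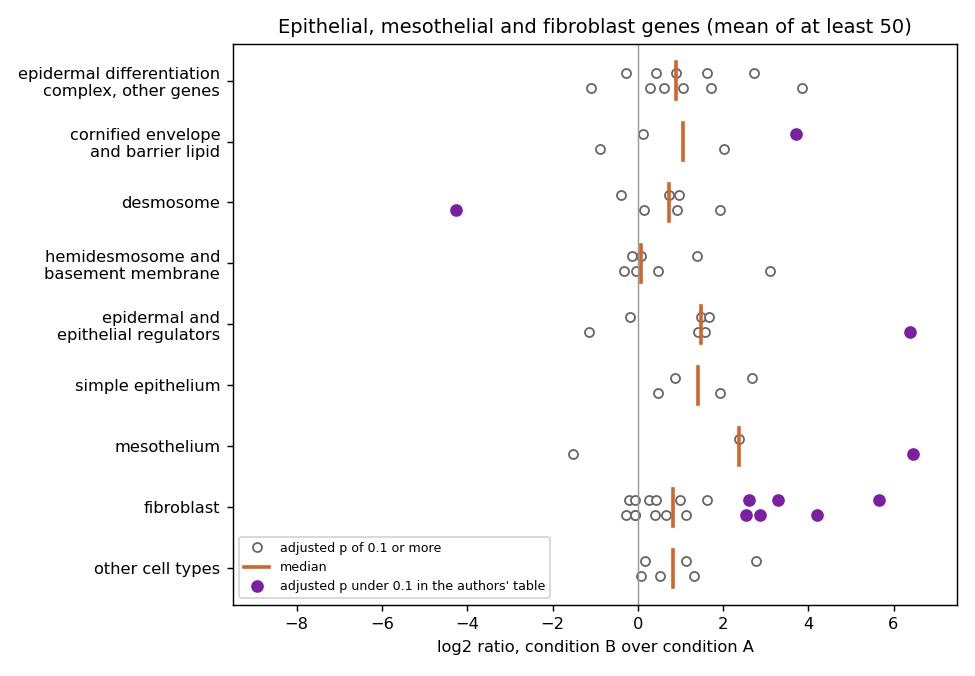
Log2 ratio of condition B over condition A (x axis) for genes at or above a mean normalized count of 50 in 9 lists of epithelial, mesothelial, fibroblast and other cell type genes, 1 point per gene. Filled points pass the authors' threshold and orange bars mark the medians; Pkp1 is the filled point at -4.26, and Hoxc13 and Upk1b are those above 6.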

How the data were processed

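Per the labels' protocols, TRIzol RNA of frozen cell pellets was cleared of DNA and sequenced as TruSeq RNA v2 libraries, 1 per genotype; the labels nevertheless name the molecule as genomic DNA. TopHat2 2.0, DESeq and the mouse build mm9 are named by the submitters' processing notes; the read counter, the annotation and the settings were not stated in the labels or the file. The authors' deposited table holds, per gene, a signal (the mean over both conditions of counts divided by size factors), the ratio of condition B over condition A, its log2 value and raw and adjusted p-values. Another 2 columns, the values of each condition, match no sample's labels and were not read.

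Reads were recovered from the deposited mean and ratio. The lowest mean among genes at 0 in the opposite condition fixes what 1 read is worth, 0.949 in condition A and 1.05 in condition B, and 100% of values in each condition were then whole within 0.01. The result is arithmetically the same as the values of each condition, and ties neither to a genotype. Folds equal the deposited ratios. No count model was fitted with 1 library per condition.

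Genes were counted at a mean of 50 or more when the ratio was at least 2-fold in either direction (a log2 ratio of 1), and separately at an adjusted p under 0.1. Named were the keratin, Lce and Sprr genes at a mean of 50, those at 10 by value or range, and of each other list the genes past the authors' threshold and up to 4 with the largest ratios. Further genes, among them Lor, Ivl, Plec, Itgb4, Epcam and the low keratins, were chosen with their values seen. The members and lists were chosen with earlier results of these data known. Of the lists' entries, those absent from the table were left out, and 1 gene that the rule names is not reported here.

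Lengths, windows of 50 bases and overlaps came from GENCODE M21, and gene order and promoters from RefSeq on GRCm38.p6, matched by symbol. Python 3.11.15, pandas 2.3.3, SciPy 1.17.1 and Biopython 1.88 were used. The 2-fold rule and the recovery were run on simulated counts that held counting error only and changes larger than 2-fold. That run checks the code and not how the rule fares with variation between libraries. Alternatives were minimum means of 10, 200 and none, log2 ratios of at least 2 and 0.585, an adjusted p under 0.05, and centring on the median or the trimmed mean of all ratios.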

Additional observations from a re-analysis of the deposited data

How the results depend on the processing

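Counts over these genes depend on the minimum mean. With a minimum of 200, 2 of the genes left were at least 2-fold higher in condition B, against 6.27% of all genes there. Past the authors' threshold were 2, against 3.21%. No Lce gene reached a mean of 200, since the highest was Lce1g at 155, so the 0 Lce genes counted there follow from the minimum. The 1 Sprr gene counted there, Sprr2k, was the only one to reach 200. With no minimum, 47 of the 87 genes were at 0 in both conditions and have no ratio. Of the rest, 20 were 2-fold higher in condition B and 11 were 2-fold lower, mostly genes of a few reads. Over all genes above 0 the shares were 18.2% and 13.5%. By family with no minimum, 11 keratin, 5 Lce and 4 Sprr genes were 2-fold higher and 8, 1 and 2 were 2-fold lower. The median log2 ratio was 1.39 at the minimum of 50, 0.037 at 10, -0.020 at 200, 0.94 with no minimum, 1.42 when centred on the median and 1.43 when centred on the trimmed mean, so its sign is not stable. The epithelial and mesothelial lists are counted here without S100a4, which is also a fibroblast marker. They had 18 genes 2-fold higher and 4 2-fold lower in condition B, against 8.31% and 9.6% of all genes at the minimum of 50. The lists held 11, 4, 7, 7, 7, 4 and 3 genes at that minimum, with S100a4 among the 11. At a minimum of 10 they had 30 and 8, against 10.9% and 10.6% of all genes. At 200 they had 9 and 2, against 6.27% and 8.32%, and with no minimum 49 and 19, against 18.2% and 13.5%. The number of list genes at a minimum of 10, of 200 or with none is not given here, so those counts give no share. At a log2 ratio of at least 2 they had 9 and 1, against 3.84% and 2.95%. The other 76 values stayed within 1.5 times, among them all counts of the fibroblast list; centring shifted ratios by 0.04. Depth limits the genes of 0 to 3 reads, for which no ratio can be read. No paired analysis was possible because each genotype has 1 library.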
